A study of Mus musculus with 12 samples.

Results

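Small subunit ribosomal protein genes were followed in cultured B cells from mice with the T58A point mutation in MYC and from WT mice. The members are the table rows whose symbol is Rpsa or Rps followed by a number. Pseudogene symbols and the Rps6k kinases were left out. They came to 33 genes, of 23973 rows in the table of IL7 cultures and 24015 rows in the table of LPS cultures. The LPS table held all 33, the IL7 table held 32, and Rps18 was not analysed here in IL7 cultures. All of these rows passed the filter on low values, which left 11604 genes in IL7 cultures and 11291 in LPS cultures.

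The T58A group of marrow B cells had 3 libraries, and so did the WT group, after 48 h with IL7, the cytokine on which B cell precursors grow. The T58A group of splenic B cells had 3 libraries, and so did the WT group, after 48 h with LPS, a bacterial product that makes mature B cells divide. The design text calls the animals littermates, and ages are not given in the sources used here. The labels do not tie a library to an animal, so the p-values measure the spread between these samples, which may be technical. Each title carries a pair number that joins a T58A and a WT library. In the LPS table, 2 T58A columns carry the same header. These are named first and second unnumbered T58A library.

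The small subunit of the ribosome reads the messenger RNA, and about as many different proteins as there are genes here are folded around its single ribosomal RNA. The subunit is built in the nucleolus with the help of assembly factors, binds initiation factors and the first transfer RNA, and then joins the large subunit. Messages for ribosomal proteins begin with a run of pyrimidines, the TOP element, through which growth signals set their translation. MYC is known for driving genes of ribosome production. T58 is a residue whose phosphorylation marks MYC for degradation.

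The libraries held 8486753 to 10201113 reads assigned to genes in IL7 cultures and 5110746 to 9332410 in LPS cultures. A count of 0 then allows up to 3 reads, which is 2.15 to 4.12 normalised reads and covers counting error only. Xist and Y-linked reads marked every T58A library and WT 3 as male and WT 1 and WT 2 as female, in both cultures, so only pair 3 compares libraries of 1 sex. The WT 2 library of the IL7 cultures held 23674 normalised reads of Xist together with 168 on Y-linked genes. The B lineage markers Cd79a, Cd79b, Ms4a1, Pax5 and Ebf1 were read in every library. Cd79a, a signalling chain of the B cell receptor, had 4783 to 5548 normalised reads in T58A and 5929 to 9325 in WT in IL7 cultures, and 7266 to 9265 in T58A and 9006 to 9325 in WT in LPS cultures. Granulocyte and monocyte markers (11 genes) summed to 365 to 830 normalised reads in T58A and 550 to 1786 in WT in IL7 cultures, where none was at 0 in all libraries. They summed to 497 to 668 in T58A and 570 to 793 in WT in LPS cultures, where Elane was at 0 in all 6 libraries. Most of this LPS sum was Itgam, with 338 to 590 in T58A and 419 to 716 in WT, so it mainly follows that gene. In LPS cultures Lyz2 had means of 16.8 in T58A and 12.6 in WT. The group means of S100a8, S100a9, Mpo and Ctsg there were no higher than 0.983 (S100a8 in WT).

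The starts of these genes were searched for a pyrimidine run of the kind the TOP element has. RefSeq promoters on GRCm38.p6 matched 24 of the genes with 29 start sites. A run of at least 8 pyrimidines (C or T on the gene's strand) within 30 bases on either side of the start stood at 13 of the 29 starts (44.8%). It stood at 25 of 47 starts of large subunit ribosomal protein genes (53.2%) and at 22.9% of all 32851 promoters. The E-box CACGTG, a motif that MYC binds with its partner MAX, reads the same on both strands. It was found within the 300 bases from 250 before to 50 after the start at 1 of the 29 starts (3.45%), another start of Rps19, against 7 of 47 starts of large subunit genes (14.9%) and 7.15% of all promoters. The windows below run 5′ to 3′ on the gene's strand from 30 bases before to 20 bases after the start, with the longest pyrimidine run in capitals. Rps6, Rps27, Rps18, Rps10 and Rps25 show long runs, and Rps2, Rps16 and Rps19, whose levels are described further on, have none of 8 or more in these windows.

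Rps6 (chr4:86857348-86857397, minus strand): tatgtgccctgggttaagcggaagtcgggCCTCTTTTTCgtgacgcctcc
Rps27 (chr3:90213629-90213678, minus strand): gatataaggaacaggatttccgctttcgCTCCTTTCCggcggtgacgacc
Rps18 (chr17:33955646-33955695, minus strand): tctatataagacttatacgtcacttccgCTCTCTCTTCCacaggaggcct
Rps10 (chr17:27635225-27635274, minus strand): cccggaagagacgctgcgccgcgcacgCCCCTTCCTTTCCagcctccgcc
Rps25 (chr9:44407684-44407733, plus strand): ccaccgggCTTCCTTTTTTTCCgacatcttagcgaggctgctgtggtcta
Rps2 (chr17:24720033-24720082, plus strand): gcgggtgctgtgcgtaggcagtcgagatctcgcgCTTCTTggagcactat
Rps16 (chr7:28350659-28350708, plus strand): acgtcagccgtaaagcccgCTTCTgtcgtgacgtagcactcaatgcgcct
Rps19 (chr7:24884562-24884611, plus strand): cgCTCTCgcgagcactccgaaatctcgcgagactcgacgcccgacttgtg

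In Rps6, Rps27, Rps18 and Rps10 the run begins 1 to 3 bases before the annotated start, and in Rps25, as in some of the other starts counted, it lies wholly upstream of the start and so outside the message. These matches describe the letters of the window and show no binding.

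The recorded levels of these genes differed far more than their equal numbers in the ribosome would give. Rps3, a protein at the entry of the messenger RNA channel, was highest in both cultures. It stood at 23285 normalised reads per kilobase of coding sequence in T58A and 22945 in WT in IL7 cultures, and at 37294 in T58A and 30844 in WT in LPS cultures. Rps27 was the lowest protein-coding member, with 67.6 per kilobase in T58A and 38.9 in WT in IL7 cultures, and 70.1 in T58A and 61.2 in WT in LPS cultures. From Rps3 to Rps27, the WT means per kilobase spanned 591-fold in IL7 cultures and 504-fold in LPS cultures.

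This order followed how much of a gene's coding sequence is repeated in other annotated genes. Ribosomal protein genes have many processed pseudogenes, copies of the message without introns, and reads that match several places can be dropped or split. For each member, every 50-base window of the coding sequence was looked for in all other annotated genes (GENCODE M21, GRCm38). Rps3, on chr7:99477896-99483738, shared 8.09% of its windows. In Rps9, Rps15, Rps21, Rps27l and Rps14 the share was 43.0% to 51.7%. Rps4l, on chr6:148354656-148355598 and annotated as a transcribed processed pseudogene, shared 14.9% of its transcript. Of all members, 24 shared 73.0% or more, and 10 of these shared every window, among them Rps6, Rps16, Rps27 and Rps28. Rps2 shared windows with 71 other genes, all pseudogenes.

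Across the protein-coding members, Spearman's rho between the share of repeated windows and the WT level per kilobase was -0.86 over 31 genes in IL7 cultures and -0.84 over 32 genes in LPS cultures. These genes share libraries and have short messages, so this describes the tables and carries no p. Rps20 departed from the order: it shared 85.7% of its windows and still had 10895 normalised reads per kilobase in T58A and 12179 in WT in IL7 cultures. The spread between replicates followed the same order more loosely, with rho 0.58 in IL7 and 0.39 in LPS cultures. Among members with a mean of 100 or more normalised reads, the median spread (pooled SD on the log2 scale, IL7 cultures) was 0.11 for 8 genes that share under 60% of windows and 0.29 for 18 that share more, beside 0.15 over 8944 genes. In LPS cultures it was 0.34 for 8 genes and 0.52 for 20 genes, beside 0.23 over 8410 genes. How far repeated sequence enters the differences between T58A and WT was not tested. The read length, and how the authors' counting treated reads with several matches, are not given in the sources used here. Members with high shares are uncertain for that reason.

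**Figure D1:**
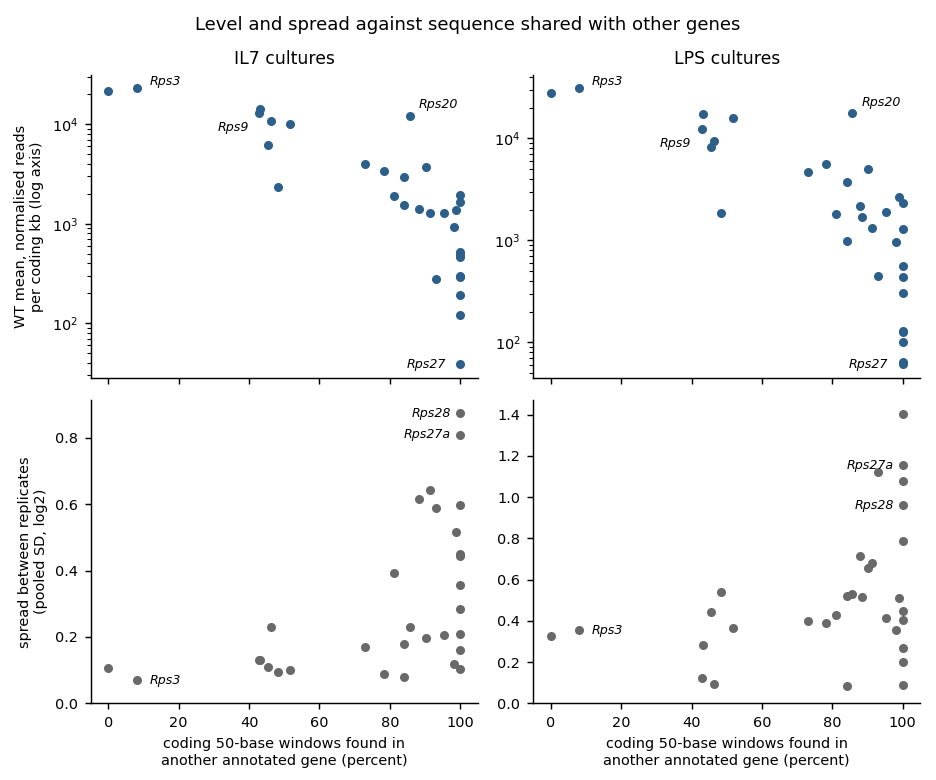
Each point is 1 protein-coding small subunit gene, placed by the percent of its coding 50-base windows found in another annotated gene (horizontal axis). The upper panels show the WT mean in normalised reads per coding kilobase on a log axis, which runs over 591-fold in IL7 and 504-fold in LPS cultures and falls towards genes at 100%. The lower panels show the pooled SD between replicates on the log2 scale, which is 0.07 for Rps3 and 0.87 for Rps28 in IL7 cultures.

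In T58A marrow B cells grown with IL7, small subunit ribosomal protein genes as a group stood close to WT. Limma without the pair called none of them. With the pair as a block, Rps16 was called lower and Rps2 and Rps27l slightly higher, with members called about as often as all genes. The small subunit genes took 0.782%, 0.784% and 0.768% of all assigned reads in T58A 1, 2 and 3, against 0.891%, 0.767% and 0.790% in WT 1, 2 and 3. The groups overlap, and WT 1 stands above the other 5 libraries. Means on the log2 scale, used wherever a mean is called higher or lower, were higher in T58A for 12 of the 32 genes and lower for 20, beside 49.0% of all genes tested with a higher mean. Among 842 other genes with transcripts of 1000 bases or less, 38.7% had a higher mean. The members' median log2 change (T58A over WT, on log2 of normalised reads plus 1) was -0.05, beside -0.01 over all genes. Without WT 1 the median was 0.05, and with a correction for length and GC content it was 0.04 with 19 genes above 0.

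Without a term for the pair, limma called none of the 32 genes at an adjusted p under 0.05 (0% of all genes), and 4 had an unadjusted p under 0.05, beside 16.9% of all genes. edgeR and limma-voom called 0 of them and 0 of all 11604 genes. DESeq2 called Rps16, beside 2.9% of the genes to which it gave an adjusted p. With the pair as a block, limma called 2 members higher, Rps2 and Rps27l, and 2 lower, among them Rps16, beside 6.41% of all genes called higher and 6.31% called lower (12.7% in both directions). T58A lay wholly above WT for 2 of 32, beside 12.9% of all genes, and wholly below for 2, beside 10.8%. The members' shares of higher calls and of groups that do not overlap were close to or below those of all genes.

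Rps16, whose tail reaches the transfer RNA in the decoding site (chr7:28350652-28353155), had 303, 288 and 329 normalised reads in T58A 1, 2 and 3. WT 1, 2 and 3 had 406, 899 and 1261. The T58A libraries lay close together and all below WT, and the WT libraries were spread over a wide range. The log2 change was -1.33 ± 0.24 (SE) with limma's adjusted p = 0.0125 under the block and 0.179 without it. All windows of Rps16 are shared with 4 pseudogenes.

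Rps2, a protein at the entry of the messenger RNA channel (chr17:24718116-24721929), had 1541, 1893 and 1942 normalised reads in T58A 1, 2 and 3, against 1189, 1371 and 1507 in WT 1, 2 and 3. The groups did not overlap, by a narrow margin between T58A 1 and WT 3, and the T58A value was higher in each pair. The log2 change was 0.40 ± 0.07 (SE) with limma's adjusted p = 0.00965 under the block and 0.204 without it.

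Rps27l, a paralog of Rps27 that p53 is known to induce (chr9:66946086-66949516), had 715, 721 and 776 normalised reads in T58A 1, 2 and 3. WT 1, 2 and 3 had 560, 558 and 645. Here too the groups did not overlap, and the log2 change was 0.33 ± 0.08 (SE) with limma's adjusted p = 0.028 under the block and 0.191 without it. Rps27l shares 48.3% of its windows.

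Both increases depended on the fit. Pairs 1 and 2 differ in sex as well as genotype. With sex added to the block, the genotype term therefore rests on pair 3 alone. The log2 change in pair 3 was 0.37 for Rps2, 0.27 for Rps27l, -1.93 for Rps16 and -1.66 for Rps27a. In pairs 1 and 2 Rps27a was higher in T58A, by 0.98 and 0.17. Without pair 2, which holds the WT library with both Xist and Y-linked reads, the blocked fit gave limma's adjusted p = 0.118 for Rps27l. It still called Rps2 higher (0.0475) and Rps16 lower, with Rps6 added above and Rps20 below. Of all 11610 genes it called 344 higher and 431 lower. In the authors' deposited table, 1 member was higher, Rps2 (adjusted p = 0.00109), and 2 were lower, among them Rps16 (0.023). That table called 4.67% of genes higher and 4.97% lower.

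**Figure D2:**
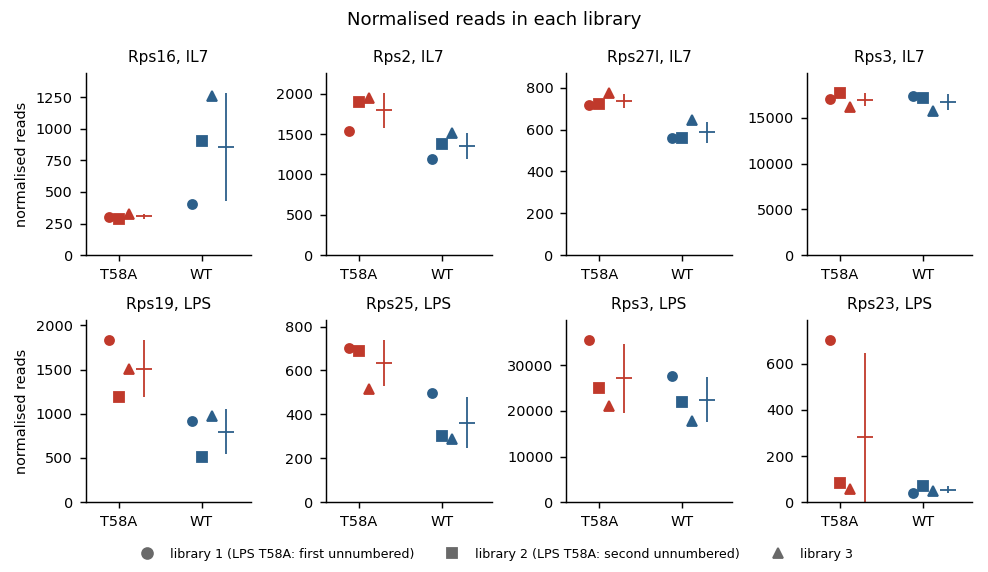
Normalised reads (vertical axis, from 0) of 8 genes in each T58A library (red, left) and each WT library (blue, right), with the mean and SD beside the points (n = 3 each); the SD bar of Rps23 in T58A reaches below the axis. In IL7 cultures Rps16 is below WT and Rps2 and Rps27l above it in every library while Rps3 overlaps, and in LPS cultures Rps19 and Rps25 lie above WT while Rps3 and Rps23 overlap.

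Abundant members differed little in IL7 cultures. Rps3 had 17011, 17706 and 16206 normalised reads in T58A 1, 2 and 3, against 17333, 17098 and 15750 in WT 1, 2 and 3. The groups overlapped, with a log2 change of 0.02 ± 0.09 (SE). Rps14, whose loss contributes to the anaemia of the human 5q- syndrome, had 4202, 4743 and 4247 in T58A and 4936, 4284 and 4551 in WT, with a log2 change of -0.06 ± 0.09. Rps4x, the X-linked member, had 2358, 2819 and 2719 in T58A and 3503, 2713 and 2550 in WT, with a log2 change of -0.14 ± 0.13. The groups overlapped for these 2 genes as well.

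Members with defined roles in signalling or disease overlapped too. Rps6, the target of the S6 kinases, had 346, 380 and 581 normalised reads in T58A 1, 2 and 3, against 246, 480 and 311 in WT 1, 2 and 3. Its log2 change was 0.35 ± 0.27 (SE). Rps19, the gene most often mutated in human Diamond-Blackfan anaemia, had 1048, 826 and 952 in T58A and 1177, 571 and 759 in WT. T58A was lower in pair 1 and higher in pairs 2 and 3. Rpsa, also known as the laminin receptor precursor, had 904, 816 and 1498 in T58A and 1672, 773 and 1218 in WT, with a log2 change of -0.17 ± 0.30.

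The lowest 6 members in IL7 cultures included 5 with every window shared. Rps28, a small protein at the messenger RNA exit, had 33.4, 23.8 and 21.9 normalised reads in T58A 1, 2 and 3, against 19.5, 72.5 and 95.8 in WT 1, 2 and 3, a log2 change of -0.97 ± 0.54 (SE) with overlapping groups. Rps27 had 9.68, 18.6 and 22.8 in T58A and 10.2, 8.15 and 11.0 in WT, a log2 change of 0.67 ± 0.41. Its lowest library held 9 reads. Rps4l, the pseudogene, had 33.4, 25.8 and 28.5 in T58A and 44.6, 57.1 and 29.7 in WT, a log2 change of -0.53 ± 0.29. Rps13, Rps23 and Rps29 had 34.2 to 96.1 normalised reads in T58A and 45.5 to 90.0 in WT, with log2 changes of -0.28, 0.02 and 0.00. Rps10 had 73.2, 99.2 and 121 in T58A and 225, 104 and 82.6 in WT, a log2 change of -0.38 ± 0.36. In Rps7, Rps9, Rps12, Rps15, Rps15a, Rps20, Rps21, Rps24, Rps25, Rps26, Rps27a and Rps3a1 the groups overlapped in IL7 cultures, with log2 changes from -0.19 (Rps25) to 0.31 (Rps3a1).

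In T58A splenic B cells grown with LPS, mean levels of most small subunit ribosomal protein genes exceeded those in WT, although limma without the pair called none. The genes took 2.29%, 1.73% and 1.35% of assigned reads in the first and second unnumbered T58A libraries and T58A 3, against 1.64%, 1.38% and 1.13% in WT 1, 2 and 3. The groups overlap, because WT 1 and WT 2 lie between the T58A values. T58A 3 was above WT 3, and each unnumbered T58A library was above both WT 1 and WT 2. The mean was 1.79% ± 0.47 in T58A and 1.38% ± 0.25 in WT (SD, n = 3 each). In such bulk samples more cells of a type cannot be told apart from more RNA per cell.

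Of the 33 genes, 29 had a higher mean in T58A, beside 52.4% of all genes tested. The median log2 change was 0.34, beside 0.01 over all genes. Rps4l, Rps10, Rps27l and Rps27a were lower. Paired as the first unnumbered library with WT 1 and the second with WT 2, 27 genes were higher in pair 1, 31 in pair 2 and 26 in pair 3, with median log2 changes of 0.47, 0.33 and 0.20. The whole group moved together between libraries. Among T58A libraries, the first unnumbered one was highest for 26 of 33 genes and T58A 3 lowest for 26. Among WT libraries, WT 1 was highest for 20 genes and WT 3 lowest for 21. Leaving out 1 library at a time gave medians from 0.20 (without WT 3) to 0.56 (without T58A 3) and 28 to 32 genes above 0. With sex as a covariate the median was 0.59, but that fit sets T58A against WT 3 alone, the only male WT library.

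Plasmablast markers moved the other way between the groups. All 5 (Igj, Prdm1, Irf4, Xbp1 and Sdc1) had a lower mean in T58A, with a median log2 change of -0.60. Their sum was 19399 to 57062 normalised reads in T58A and 31938 to 84330 in WT. Igj, the joining chain of secreted antibody, had 23218, 9409 and 37355 in the first and second unnumbered T58A libraries and T58A 3, against 63378, 17254 and 59432 in WT 1, 2 and 3. None of the 5 was called. Their part in the small subunit values was not tested.

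**Figure D3:**
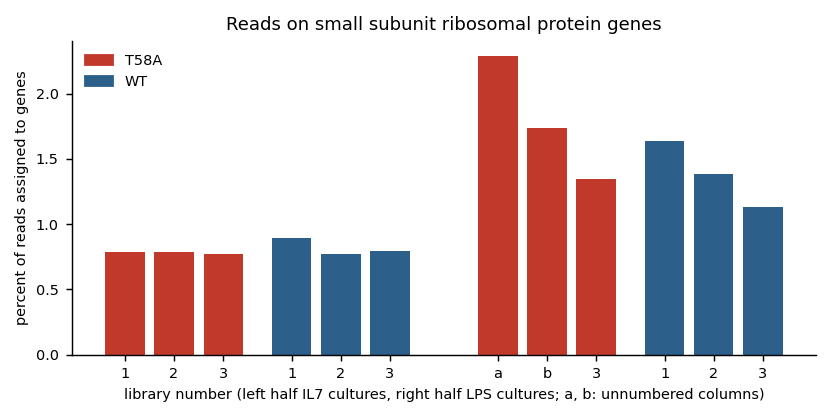
Percent of all reads assigned to genes that fell on small subunit ribosomal protein genes, 1 bar per library, T58A in red left of WT in blue. In IL7 cultures the bars run from 0.767% to 0.891%; in LPS cultures the T58A bars run from 1.35% to 2.29% and the WT bars from 1.13% to 1.64%.

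None of the 33 genes passed an adjusted p of 0.05 in LPS cultures without the block, in limma (0% of all genes), edgeR, limma-voom or DESeq2. Among all genes, edgeR and limma-voom called 0 of 11291, and DESeq2 called 1 higher. In limma 5 members had an unadjusted p under 0.05, among them Rps19, Rps25, Rps3a1 and Rps2, beside 2.52% of all genes. T58A lay wholly above WT for 8 genes, among them Rps2, Rps3a1, Rps9, Rps13, Rps19, Rps25 and Rps27, beside 3.1% of all genes, and wholly below WT for Rps4l alone, beside 3.3%. With the first unnumbered library paired with WT 1, limma called Rps19 higher, 1 of 2 genes called higher among all those tested (0.0177%, and 0.0354% in both directions), and 2 called lower (0.0177%) were not members. edgeR with that block called 3 members, among them Rps19 and Rps25, beside 0.142% of all genes. With the unnumbered libraries exchanged, limma and edgeR called 0 members and 0 of all 11291 genes.

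Rps19 (chr7:24884371-24889806) had 1839, 1194 and 1504 normalised reads in the first and second unnumbered T58A libraries and T58A 3, against 914, 507 and 970 in WT 1, 2 and 3. The lowest T58A value exceeded the highest WT value. The mean was 1512 ± 322 in T58A and 797 ± 253 in WT (SD, n = 3 each). The log2 change was 0.96 ± 0.11 (SE), with limma's adjusted p = 0.0494 under the block and 1.00 without it or with the libraries exchanged. In IL7 cultures the log2 change of Rps19 was 0.23 ± 0.12 under the block. Without the block the SE was 0.26 in LPS and 0.23 in IL7 cultures.

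Rps25, a protein needed when viral internal entry sites recruit the subunit (chr9:44407139-44410427), had 701, 690 and 514 normalised reads in the first and second unnumbered T58A libraries and T58A 3. WT 1, 2 and 3 had 497, 300 and 290. The groups did not overlap, although T58A 3 and WT 1 were close. Under the block the log2 change was 0.84 ± 0.13 (SE), and the adjusted p was 0.0565 in limma and 0.0408 in edgeR.

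Rps2 had 1248, 1146 and 1103 normalised reads in T58A and 827, 921 and 861 in WT, with no overlap and a small spread in each group. Its log2 change was 0.42 ± 0.14 without the block, and its adjusted p under the block was 0.0871 in limma and 0.0801 in edgeR.

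Some of the largest mean increases went with a wide spread between libraries. Rps23, at the decoding centre, had 704, 84.6 and 56.7 normalised reads in T58A and 39.8, 71.8 and 50.1 in WT. Only the first unnumbered T58A library stood apart, and the log2 change was 1.51 ± 0.78. Rps28 had 15.6, 96.1 and 65.5 in T58A and 17.9, 19.9 and 24.6 in WT, a log2 change of 1.14 ± 0.58 with overlapping groups. All windows of both genes are found in other genes.

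Rps3a1, a protein of the subunit's platform, had 3609, 2267 and 1979 normalised reads in the first and second unnumbered T58A libraries and T58A 3, against 1103, 921 and 1966 in WT 1, 2 and 3. The groups did not overlap, but T58A 3 and WT 3 were nearly equal, and the log2 change was 1.01 ± 0.31 (SE). Rps16 had 2485, 1314 and 1422 in T58A and 1405, 1260 and 405 in WT, a log2 change of 0.90 ± 0.44. The groups overlapped. Rps18, seen in this culture only, had 2319, 2496 and 757 in T58A and 1021, 777 and 1182 in WT, a log2 change of 0.74 ± 0.41. T58A 3 was the lowest of its 6 libraries.

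The abundant members varied together from library to library. Rps3 had 35600, 24918 and 21043 normalised reads in the first and second unnumbered T58A libraries and T58A 3, against 27707, 21955 and 17794 in WT 1, 2 and 3. Rps14 had 11120, 8176 and 6695 in T58A and 9303, 6513 and 5704 in WT. Both genes overlapped between the groups, with T58A higher in each pair when the first unnumbered library is set with WT 1. With the unnumbered libraries exchanged, T58A is lower than WT 1 for both. Their log2 changes were 0.26 ± 0.27 and 0.27 ± 0.25 (SE). Over the 9 members with under 60% of windows shared, the median log2 change was 0.27 with 7 higher, and over the other 24 it was 0.54 with 22 higher.

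Further members with overlapping groups were Rps4x, Rpsa and Rps6. Rps4x had 7791, 5094 and 2455 normalised reads in T58A and 5073, 3720 and 2947 in WT, and T58A 3 was its lowest library. Rpsa had 4107, 3009 and 1887 in T58A and 3102, 2239 and 1667 in WT, and the second unnumbered library is below WT 1. Rps6 had 356, 366 and 555 in T58A and 332, 212 and 434 in WT. Their log2 changes were 0.27 ± 0.38, 0.34 ± 0.31 and 0.41 ± 0.28 (SE).

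The 4 genes with lower means also varied within their groups. Rps4l had 27.6, 19.4 and 24.4 normalised reads in T58A and 44.0, 32.8 and 35.4 in WT, wholly below WT in LPS cultures, with a log2 change of -0.63 ± 0.30 (SE) and limma's adjusted p = 1.00. Rps10 had 142, 308 and 72.4 in T58A and 357, 70.9 and 237 in WT, a log2 change of -0.31 ± 0.63. Rps27l had 634, 309 and 399 in T58A and 653, 303 and 450 in WT, a log2 change of -0.06 ± 0.32. Rps27a, which is made as a fusion with ubiquitin, had 152, 462 and 111 in T58A and 547, 130 and 119 in WT, a log2 change of -0.03 ± 0.64. For Rps10 and Rps27a the second unnumbered T58A library and WT 1 were the highest of their groups. The low-count members Rps13, Rps27 and Rps29 had 16.6 to 52.3 normalised reads in T58A and 14.7 to 32.0 in WT, with log2 changes of 0.53, 0.18 and 0.58. Rps7, Rps9, Rps12, Rps15, Rps15a, Rps20, Rps21, Rps24 and Rps26 had log2 changes from 0.24 (Rps24) to 0.56 (Rps15a) in LPS cultures. None of these was called in limma without the block or with either pairing, while Rps26 was called higher under the block without pair 3. That fit called 153 of 11343 genes higher.

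In the authors' deposited table for LPS cultures, 8 members were higher at an adjusted p under 0.05 and none was lower, beside 1.49% of genes with an adjusted p called higher and 2.71% called lower. Among the 8 in the authors' deposited table were Rps19 (adjusted p = 6.53e-09), Rps25 (7.59e-05), Rps26 (0.000981), Rps2 (0.0247), Rpsa (0.0402) and Rps15 (0.0415). In the authors' deposited table, 9 of the 33 members had no adjusted p. Rps26 and Rps15 had 2429 ± 810 and 9601 ± 2247 normalised reads in T58A, against 1624 ± 277 and 7605 ± 1105 in WT (SD, n = 3 each), and were not called in limma without the block.

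**Figure D4:**
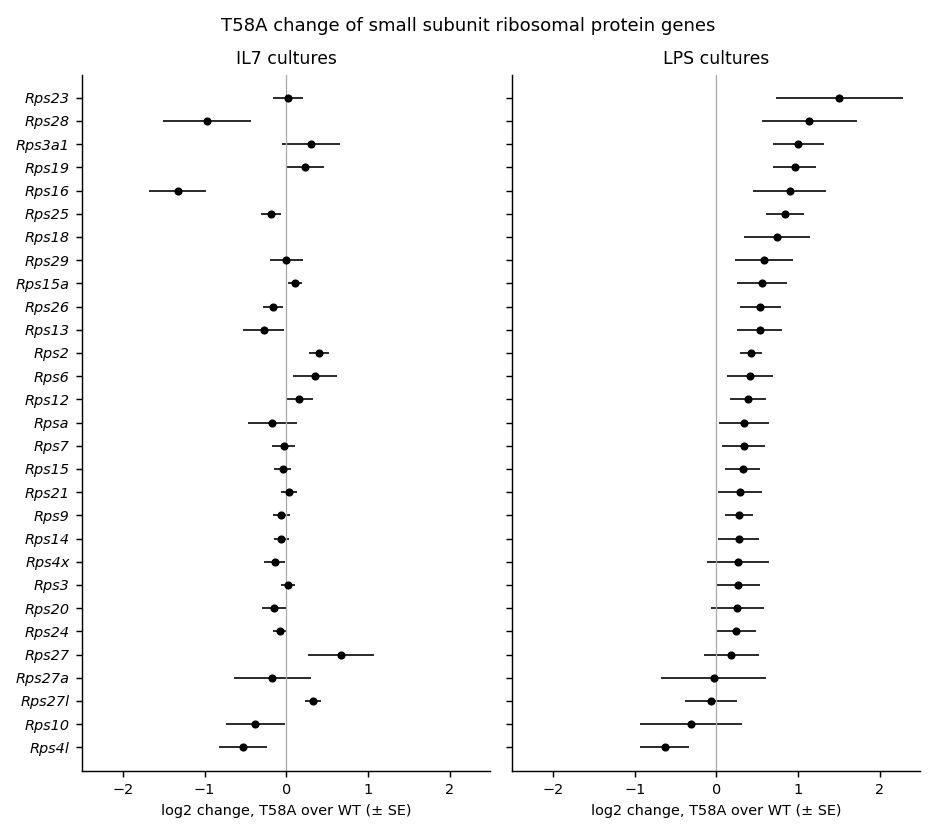
Log2 change of each gene (T58A over WT, limma without the pair, bars ± SE) in IL7 cultures (left panel) and LPS cultures (right panel) of the genes named in the text, ordered by the LPS change. In IL7 cultures most genes lie near 0, with Rps16 at -1.33; in LPS cultures Rps4l, Rps10, Rps27l and Rps27a lie below 0 and the other genes drawn lie above it.

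The T58A difference was more positive in LPS than in IL7 cultures for 29 of 32 genes, beside 53.8% of all genes, with a median of 0.37 on the log2 scale, beside 0.02 over 10767 genes. In 17 genes the change was below 0 in IL7 cultures and above 0 in LPS cultures, and in 11 it was above 0 in both. Spearman's rho between the changes in the 2 cultures was 0.08 over 32 genes. The interaction of genotype and culture was called for no member without the block in limma (0% of all genes), and 6 had an unadjusted p under 0.05, beside 4.45% of all genes. edgeR, limma-voom and DESeq2 called none of the members either. Among all genes, edgeR and limma-voom called 0 and DESeq2 called 4.

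With the block and the first unnumbered library paired with WT 1, limma called the interaction for 4 members, all positive, beside 4.1% of all genes. For Rps16, lower than WT in IL7 cultures and with a higher mean than WT in LPS cultures, it was 2.23 ± 0.43 (SE, adjusted p = 0.0202). For Rps25 it was 1.03 ± 0.19 (limma's adjusted p = 0.0172) and for Rps26 it was 0.70 ± 0.13 (0.0179). With the unnumbered libraries exchanged, limma gave adjusted p-values of 0.265 to 0.408 for these 3 genes. It then called the interaction for 0 of all 10767 genes. For Rps2 the interaction was 0.02 ± 0.18 without the block, and its T58A mean was 1.32 times the WT mean in IL7 cultures and 1.34 times in LPS cultures. The cultures differ in tissue and in stimulus, which cannot be told apart.

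In WT cells the genes took a larger share of reads in LPS cultures (1.13% to 1.64%) than in IL7 cultures (0.767% to 0.891%). The mean share was 1.38% ± 0.25 in WT LPS and 0.816% ± 0.066 in WT IL7 libraries (SD, n = 3 each). The tables were normalised separately and differ in rows, and Rps18 enters the LPS share only, so this is given as a level with no test.

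Large subunit ribosomal protein genes had like values. In IL7 cultures 24 of 47 tested had a higher mean in T58A, and the median log2 change was 0.03. Under the block 0 were called higher and 1 lower, beside 6.41% and 6.31% of all genes. In LPS cultures 43 of 46 had a higher mean, with a median of 0.42. Under the block 1 was called higher, beside 0.0177% of all genes. The large subunit genes' share of reads was 0.911% ± 0.027 in T58A and 0.932% ± 0.041 in WT in IL7 cultures, and 1.93% ± 0.46 in T58A and 1.52% ± 0.23 in WT in LPS cultures (SD, n = 3 each).

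A pair of small subunit proteins with other names completes the subunit. Gnb2l1 (Rack1), the scaffold on the head of the subunit, had 22191, 23425 and 22203 normalised reads in T58A and 22296, 21359 and 19808 in WT in IL7 cultures. In LPS cultures it had 39649, 29787 and 26506 in T58A and 31507, 26803 and 22726 in WT. Fau, a fusion of a ubiquitin-like protein with a ribosomal protein, had a log2 change of -0.02 ± 0.21 in IL7 and 0.11 ± 0.40 in LPS cultures (SE). None of these was called, with or without the block. Myc itself had 3038, 4397 and 4827 normalised reads in T58A 1, 2 and 3, against 2010, 3204 and 3858 in WT 1, 2 and 3 in IL7 cultures, with overlapping groups. Its log2 change was 0.46 ± 0.25 with limma's adjusted p = 0.378, and ± 0.07 with 0.00791 under the block. In LPS cultures it was 0.22 ± 0.27 with limma's adjusted p = 1.00, and ± 0.11 with 0.344 under the block.

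Most factors that assemble the small subunit had higher means in T58A in IL7 cultures. Of 61 tested, 54 had a higher mean, beside 49.0% of all genes, and the median log2 change was 0.23. Limma without the block called 0 of them (27 had an unadjusted p under 0.05), and with the block it called 25 higher and 0 lower, beside 6.41% and 6.31% of all genes. Sex and genotype differ together in pairs 1 and 2 and cannot be told apart there. With sex added to the block, the genotype term rests on pair 3 alone. Markers of B cells moved in the same comparison. Of 6 markers of B cell precursors 5 had a lower mean. Under the block limma called Rag1, which cuts antibody genes for joining, lower with a log2 change of -0.78 ± 0.07 (SE, adjusted p = 0.00219). Of 6 general B lineage markers 5 also had a lower mean, with a median log2 change of -0.36. Limma called 3 of these lower under the block, beside 6.31% of all genes. All 8 tested granulocyte and monocyte markers had a lower mean, with a median log2 change of -0.98, and 0 were called under the block. Their part in the values of the lists was not tested. Heatr1, needed for transcription and processing of the ribosomal RNA precursor, had 2786, 3076 and 3182 normalised reads in T58A 1, 2 and 3, against 1718, 2189 and 2243 in WT 1, 2 and 3. Its groups did not overlap, and the log2 change was 0.56 ± 0.07 (SE, limma's adjusted p = 0.004 under the block). Rcl1, which takes part in early cleavage of that precursor, had 824, 951 and 962 in T58A and 657, 637 and 602 in WT, with a log2 change of 0.53 ± 0.09 (limma's adjusted p = 0.0101 under the block). In LPS cultures 53 of 62 had a higher mean, with a median of 0.14, and 0 were called with or without the block. Nop56, a core protein of box C/D RNA particles, had 1260, 1091 and 1123 in T58A and 762, 868 and 958 in WT, with no overlap and a log2 change of 0.43 ± 0.15.

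Factors that bind the small subunit during initiation were called higher for 6 of 22 in IL7 cultures under the block and lower for 0, beside 6.41% and 6.31% of all genes, with 16 above 0 and a median of 0.16. Without the block 0 of the 22 were called, and with sex added to it the genotype term rests on pair 3 alone. Eif3c, a core subunit of initiation factor eIF3, had 5047, 5294 and 5820 normalised reads in T58A and 4022, 4476 and 4345 in WT. Its log2 change was 0.33 ± 0.06 (SE, limma's adjusted p = 0.0158 under the block). In LPS cultures 13 of 22 had a higher mean, with a median of 0.01, and 0 were called.

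Of the S6 kinases and regulators of TOP messages, 3 of 17 were called higher in IL7 cultures under the block and 0 lower, beside 6.41% and 6.31% of all genes. Without the block 0 were called, and with sex added to it the genotype term rests on pair 3 alone. Mtor, the kinase that drives the S6 kinases, had 2765, 3170 and 3459 normalised reads in T58A. WT 1, 2 and 3 had 2857, 3161 and 1778, with overlapping groups. Larp1, which binds the TOP element, had 4926, 5383 and 5823 normalised reads in T58A and 3011, 4036 and 4269 in WT. The groups did not overlap, and the log2 change was 0.52 ± 0.07 (SE, limma's adjusted p = 0.00623 under the block). Eif4ebp2, an inhibitor of cap-dependent initiation, had a log2 change of 0.32 ± 0.07 (0.0187 on the same test). In LPS cultures 10 of 17 had a higher mean, with a median of 0.01, and 0 were called.

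Messages with a TOP element that code for other proteins had, in IL7 cultures, 11 of 14 higher means and a median log2 change of 0.12. Under the block 2 were called higher and 1 lower, beside 6.41% and 6.31% of all genes. Without the block 0 were called, and with sex added to it the genotype term rests on pair 3 alone. Under the block Eif4b had a log2 change of 0.27 ± 0.06 (SE, limma's adjusted p = 0.0243) and Vim, the intermediate filament vimentin, -0.39 ± 0.06 (0.00791). In LPS cultures 14 of 15 had a higher mean with a median of 0.27, close to the 0.34 of the small subunit genes, and 0 were called. Gas5, a noncoding RNA with a TOP element, had 5602, 3363 and 3285 normalised reads in T58A and 2903, 2511 and 2785 in WT in LPS cultures, with no overlap. Other genes with transcripts of 1000 bases or less had median log2 changes of -0.06 in IL7 and 0.00 in LPS cultures.

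**Figure D5:**
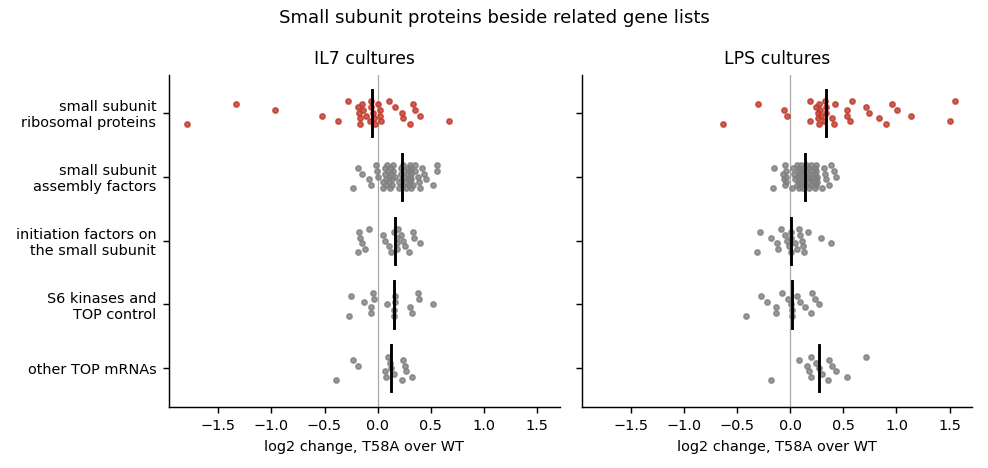
Log2 change (T58A over WT, limma without the pair) of each gene in 5 lists, small subunit ribosomal proteins in red and the related lists in grey, with the median of each list as a black line. In IL7 cultures (left) the medians are -0.05, 0.23, 0.16, 0.15 and 0.12 from top to bottom; in LPS cultures (right) they are 0.34, 0.14, 0.01, 0.01 and 0.27.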

How the data were processed

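RNA sequencing of 12 libraries was analysed. The submitters' processing notes name bcl2fastq 1.8.4, TopHat2 2.1.0, HTSeq 0.6.1, DESeq2 and build mm10. The authors deposited a signal per gene and library, which is a whole read count divided by 1 size factor (100% of values whole within 0.001), and, for each gene, a log2 fold change with its p-value and adjusted p. Genes were filtered with filterByExpr of edgeR 4.0.16 (minimum count 10, total 15), and log2 of the signal plus 1 was tested with limma 3.58.1 (trend) in R 4.3.3 across all genes and without the pair, and calls were made at an adjusted p (Benjamini-Hochberg) under 0.05. Raw counts had been foreseen in the plan. Counts were recovered for edgeR, limma-voom and DESeq2 1.42.0, which were alternatives, as were the replicate block, sex, length and GC content, scalings, filters, pseudocounts and leaving out libraries. The fits were also run on simulated data, which held no pair effect and larger changes than most of those reported here. Those runs therefore do not cover how the block handles a pair effect.

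The titles number the pairs. Deviations from the group mean correlated within IL7 pairs 1, 2 and 3 at 0.41, 0.15 and 0.40. In LPS cultures they correlated at 0.34, 0.66 and 0.54 with the first unnumbered column set against WT 1, a choice the headers do not fix. With the columns exchanged, the first correlated at -0.22 with WT 2 and the second at -0.23 with WT 1.

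The members and lists were chosen with earlier results of these data known. Named genes were the fixed names Rps6, Rps14, Rps19, Rps4x, Rps27, Rps27l and Rpsa, the largest changes in each direction, members called under the block, members under 100 normalised reads and, for each list, genes with the smallest p. Others were added after their values were seen. Some members are counted but not reported by name here. Shared windows were exact matches on both strands between GENCODE M21 sequences, and 98.5% of symbols matched. Promoters are from RefSeq. Python 3.11.15 with matplotlib 3.10.9 drew the figures.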

Additional observations from a re-analysis of the deposited data

How the results depend on the processing

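In IL7 cultures, 0 members were called without the block, and DESeq2 called 1 lower. The replicate block, for the pair numbers of the titles, called 2 higher and 2 lower in limma and in edgeR. Of all 11604 genes it called 744 higher and 732 lower in limma, and 670 and 754 in edgeR. Joined with a length and GC correction it called 4 higher and 2 lower, beside 1231 and 817 of 11522 genes. Without pair 2 it called 2 higher and 3 lower, beside 344 and 431 of 11610 genes. With sex added, the genotype term rests on pair 3 alone. Leaving out 1 library gave 0 to 1 member called lower, beside 0 to 2 of all genes. The number above 0 was 12, and 19 under the length and GC correction with or without the block, where the median was 0.037. The median was -0.080 to 0.046 when 1 library was left out.

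In LPS cultures the replicate block (first unnumbered column with WT 1) called 1 member higher in limma and 3 in edgeR. Of all 11291 genes these fits called 2 and 16 higher. With the length and GC correction it called 1, beside 2 of 11216 genes. Without pair 3, the only pair of 1 sex, it called 7, beside 153 of 11343 genes. With the columns exchanged it called 0 members, beside 0 of all 11291 genes. The interaction had 4 members called higher in limma and 5 in edgeR, beside 344 and 384 of 10767 genes. With the length and GC correction 4 were higher and 1 lower, beside 318 and 193 of 10700 genes. The causes were not tested. The fits without pair 2 or pair 3 and the block with sex were chosen after seeing the data.

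Over 36 named results and 882 values, 799 stayed within their spread and side of the threshold, and 0 called values changed sign. 36 values in 13 results changed sign without being called. The 3 libraries per group limit precision, as do few reads for some genes: Rps27 rested on as few as 9 reads in a library.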
